A study of Homo sapiens with 12 samples.

Results

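The genes described here encode enzymes that remove superoxide and peroxides: 3 superoxide dismutases (SOD1, SOD2, SOD3), catalase (CAT), 2 glutathione peroxidases (GPX1, GPX4) and 4 peroxiredoxins (PRDX1, PRDX2, PRDX3, PRDX6). They were chosen by gene symbol, and the 10 symbols matched 11 of the 58735 genes in the deposited count table, since 2 of the listed genes carry the name SOD2. The second SOD2 gene (ENSG00000285441) held 0 to 6 counts in a library and was not tested, so 10 genes, 1 for each symbol, are described by their tests. GPX1 (ENSG00000233276), annotated as a polymorphic pseudogene, held 2 to 39 counts. Whether the counting left out reads of such genes, or reads that match several places, is not given in the sources used here, so these counts may not show how much GPX1 the cells made. It passed the filter on low counts only through its level in hemin DMSO, so that a difference involving that group was built into its inclusion.

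RNA was sequenced from K562, a leukemia line of human origin with the fusion kinase BCR-ABL1, whose cells make hemoglobin when given hemin. The study asked what nilotinib, an inhibitor of that kinase, does to erythroid gene expression. Each of the 4 groups had 3 biological replicates. Cells in mock DMSO received the solvent of nilotinib and no hemin. In mock nilotinib, cells received 0.1 μM nilotinib and no hemin. Cells of hemin DMSO received the solvent and then 50 μM hemin for 24 h, and those of hemin nilotinib received 0.1 μM nilotinib as a pretreatment and then 50 μM hemin for 24 h. The study's methods place the mock collection at 0 h of hemin, in which case hemin and 24 h of further culture cannot be told apart. In that case hemin nilotinib cells were also collected longer after nilotinib was added than mock nilotinib cells. A single cell line stands behind all values.

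Superoxide dismutases turn superoxide into hydrogen peroxide, which catalase, glutathione peroxidases and peroxiredoxins then reduce to water. Catalase works without a reducing partner, whereas peroxiredoxins mostly draw electrons from thioredoxin and glutathione peroxidases from glutathione. Red blood cells carry oxygen bound to heme iron, and catalase, the copper-zinc superoxide dismutase and peroxiredoxin 2 are among their abundant proteins.

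Total counts per library ran from 33457078 in mock nilotinib to 50506990 in mock DMSO. Levels are given as CPM, library-size-scaled counts made with edgeR's TMM factors, and a gene counted as changed at an adjusted p under 0.05 among the 20821 genes tested. In principal components of all genes tested, the groups separated on the first component (60.0% of the variance) and the second (20.3%), except that hemin nilotinib replicate 1 lay near mock nilotinib. On the second component it stood at -14.5, against -45.2 and -63.9 for the other hemin nilotinib libraries and -6.86 to -13.6 for mock nilotinib. Results of the members that rest on this library are given with and without it.

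Label checks followed treatment. HMOX1, which encodes the heme-degrading enzyme induced by hemin, had 31.7, 71.9 and 41.2 CPM in hemin DMSO against 0.0540, 0.119 and 0.135 CPM in mock DMSO. In hemin nilotinib its levels were only 0.402, 1.89 and 2.20 CPM, and in mock nilotinib it held 0 to 2 counts a library, too few for a fold. CISH, a target of STAT5 downstream of BCR-ABL1, had 93.3, 97.1 and 91.7 CPM in mock DMSO and 13.5, 12.2 and 10.4 CPM in mock nilotinib, and 22.6, 20.6 and 20.3 CPM in hemin DMSO and 11.9, 7.99 and 7.71 CPM in hemin nilotinib. Every nilotinib library was lower in CISH than every DMSO library at the same hemin dose, but CISH also fell with hemin alone (-2.15), and its fall with nilotinib was smaller under hemin (interaction term 1.76), so it does not mark nilotinib alone. DUSP6, another gene downstream of the kinase, held 0 to 15 counts and was not tested. ACTB, the gene the study used to scale its RT-qPCR, had means of 2031 ± 194 CPM in mock DMSO, 1163 ± 31.4 CPM in mock nilotinib, 1344 ± 300 CPM in hemin DMSO and, with hemin and nilotinib together, 1247 ± 294 CPM (SD, n = 3 each). Its log2 fold change with nilotinib without hemin was -0.81 (SE 0.19, adjusted p = 0.00231 in edgeR's test), so ratios to ACTB would differ from the levels given here.

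Markers of cell identity moved with the groups. TFRC, the transferrin receptor, which erythroid cells need for iron, had 414, 658 and 844 CPM in mock DMSO, 3006, 2809 and 2503 CPM in mock nilotinib, 279, 422 and 364 CPM in hemin DMSO, and 2845, 519 and 429 CPM in hemin nilotinib. In the last group only replicate 1, the library near mock nilotinib, reached mock nilotinib levels. TAL1, an erythroid transcription factor, had log2 fold changes of 1.79 without and 3.06 with hemin for nilotinib (adjusted p = 3.97e-07 and 8.50e-10 in edgeR's test). With hemin alone it fell, from a mean of 244 to 88.7 CPM (-1.46, adjusted p = 2.93e-06 in edgeR's test). Its change with nilotinib under hemin thus starts from a lower level. GATA1 fell too (-0.91). With nilotinib it rose under hemin (1.005) and did not pass without hemin (0.34, adjusted p = 0.0572 in edgeR's test). Of the 7 erythroid markers tested, 2 rose and 2 fell with hemin alone, beside 25.7% and 27.8% of all genes. The call of 1 that rose was lost in 5 alternatives. Summed megakaryocyte markers (5 genes, led by ITGA2B) were 64.4, 58.0 and 37.8 CPM in mock DMSO, 15.4, 20.7 and 25.0 CPM in mock nilotinib, 31.5, 70.0 and 35.4 CPM in hemin DMSO, and 9.37, 11.5 and 15.8 CPM in hemin nilotinib. For granulocyte and monocyte markers (5 genes, led by LYZ) the sums were 38.0, 32.0 and 25.9 CPM in mock DMSO, 3.30, 4.84 and 3.95 CPM in mock nilotinib, 30.5, 46.0 and 31.8 CPM in hemin DMSO, and 2.19, 3.38 and 4.07 CPM in hemin nilotinib. Both sums were lower in the nilotinib libraries, but they do not speak for each gene. With hemin alone CD14 and CSF1R rose (4.26 and 3.03, adjusted p = 3.30e-06 and 0.000181 in edgeR's test), while LYZ had -0.33 and did not pass. Of the megakaryocyte genes only GP1BA was tested besides ITGA2B, and it rose with nilotinib under hemin (adjusted p = 0.000673 in edgeR's test) and had 0.23 without hemin (adjusted p = 0.632). GP1BA fell with hemin alone (-3.25, adjusted p = 9.98e-06 in edgeR's test) and with hemin in the presence of nilotinib (-1.47, a call lost in 4 alternatives). Fibroblast markers (3 genes, led by COL1A1) summed to 8.53 to 14.1 CPM, 13.0 to 22.7 CPM, 24.3 to 31.2 CPM and 9.37 to 22.5 CPM in the same order of groups. COL1A1 carried this sum and rose with nilotinib without hemin (0.96, a call lost in 2 alternatives), whereas COL1A2 fell (-2.98 without and -4.57 with hemin). PF4, which marks megakaryocytes, and MS4A1, which marks B cells, were at 3 counts or fewer in every library. The part of these markers in the levels described next was not tested, and in RNA from whole cultures fewer cells of a type and less RNA per cell cannot be told apart.

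The promoter sequences of SOD3, CAT and PRDX2 are shown because these 3 members were higher with nilotinib both with and without hemin, a choice made after their values were seen. RefSeq promoters (build GRCh38.p14) were found for 7 of the 10 symbols, and not for SOD1, PRDX1 and PRDX6. Each stretch runs 5′ to 3′ on the gene's strand, from the first base of the RefSeq entry to the last base before an annotated exon. That of SOD3 lies inside the annotated gene, before the start in its RefSeq entry at 24795573. They lie at chr4:24795323-24795462 (plus strand, 140 bases, SOD3), chr11:34438684-34438924 (plus strand, 241 bases, CAT) and chr19:12801860-12802050 (minus strand, 191 bases, PRDX2). Capitals mark CACCC or its reverse complement, the letters bound by erythroid Krüppel-like factors.
SOD3: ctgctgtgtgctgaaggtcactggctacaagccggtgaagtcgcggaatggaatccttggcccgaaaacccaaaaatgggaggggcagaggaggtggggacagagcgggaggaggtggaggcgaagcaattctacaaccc
CAT: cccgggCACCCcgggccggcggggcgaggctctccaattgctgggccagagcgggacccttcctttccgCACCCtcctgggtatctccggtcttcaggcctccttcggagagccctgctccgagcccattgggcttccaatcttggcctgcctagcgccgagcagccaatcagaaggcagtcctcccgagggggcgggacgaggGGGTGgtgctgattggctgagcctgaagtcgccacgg
PRDX2: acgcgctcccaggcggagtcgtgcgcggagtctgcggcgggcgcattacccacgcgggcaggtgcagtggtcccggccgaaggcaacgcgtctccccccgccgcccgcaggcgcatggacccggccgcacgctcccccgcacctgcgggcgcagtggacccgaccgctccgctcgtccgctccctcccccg
The stretch shown for CAT held 3 such matches, and those shown for SOD3 and PRDX2 held 0 of the motifs searched. Besides CACCC these were GATAA, the core of the letters bound by GATA factors, and TGACNNNGC, the core of the antioxidant response element. The last motif was TGAGTCA, bound by AP-1 and by NFE2, and each was searched on both strands. The 7 members have 12 promoter entries, since some have several. Over the 250 bases before the RefSeq start, GATAA was in 20.4% of 35116 promoters and in 1 of the 12 (of GPX4). CACCC was in 54.7% of promoters and in 4 of the 12, which belong to 3 members (SOD2, CAT, PRDX3). TGAGTCA was in 4.2% of promoters and TGACNNNGC in 10.9%, and neither was in a member's window. A match is a description and neither a site nor a cause.

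SOD3 (ENSG00000109610, chromosome 4 from 24789912 to 24800842 in GRCh38), the secreted copper-zinc superoxide dismutase, belongs to the genes followed by RT-qPCR in the study. Its levels were 1.55, 3.82 and 2.77 CPM in mock DMSO, 80.2, 121 and 95.4 CPM in mock nilotinib, 0.858, 1.24 and 1.01 CPM in hemin DMSO, and 95.1, 117 and 70.9 CPM in hemin nilotinib. All 6 nilotinib libraries lay far above all 6 DMSO libraries, the nilotinib groups overlapped each other, and the hemin DMSO libraries lay below the mock DMSO libraries. From lowest to highest the order was hemin DMSO, mock DMSO, hemin nilotinib and mock nilotinib, and the last pair of neighbours did not differ beyond their spread. Groups without overlap, here and for the members below, were common among all genes tested. The share was 61.0% with nilotinib without hemin, 63.5% with nilotinib under hemin and 62.7% with hemin alone. It was 23.3% with hemin in the presence of nilotinib, 70.2% for nilotinib alone against hemin alone and 54.9% for both against neither.

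SOD1 (ENSG00000142168, chromosome 21 from 31659622 to 31668931), the copper-zinc enzyme of the cytosol, had 185, 196 and 215 CPM in mock DMSO, 248, 253 and 254 CPM in mock nilotinib, 576, 716 and 543 CPM in hemin DMSO, and 397, 428 and 397 CPM in hemin nilotinib. No pair of groups overlapped. The order rose from mock DMSO through mock nilotinib and hemin nilotinib to hemin DMSO, and each of the 3 neighbouring pairs passed the test.

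SOD2 (ENSG00000112096, chromosome 6 from 159669057 to 159745186), the manganese enzyme of mitochondria, varied little. It stood at 84.9, 85.8 and 86.2 CPM in mock DMSO, 81.9, 93.3 and 82.6 CPM in mock nilotinib, 55.8, 64.3 and 63.6 CPM in hemin DMSO, and 81.4, 68.1 and 58.2 CPM in hemin nilotinib. The hemin DMSO libraries were below every mock library, while the hemin nilotinib libraries spread from hemin DMSO levels to nearly those of mock. In the order hemin DMSO, hemin nilotinib, mock DMSO, mock nilotinib, no neighbours differed. Its annotated exons span 16493 bases, which lowers its level per kilobase, and 5.12% of them overlap the second SOD2 gene on the same strand and 1.81% WTAP on the other strand. Of the 150-base words of the second SOD2 gene 76.5% occur in other genes, so its 0 to 6 counts may depend on how shared reads were assigned, which was not tested.

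CAT (ENSG00000121691, chromosome 11 from 34438925 to 34472062) encodes catalase, a heme enzyme of peroxisomes and of the red cell cytosol. Its levels were 94.0, 105 and 104 CPM in mock DMSO, 349, 400.2 and 359 CPM in mock nilotinib, 61.3, 115 and 77.8 CPM in hemin DMSO, and 375, 349.5 and 288 CPM in hemin nilotinib. The 6 nilotinib libraries all lay above the 6 DMSO libraries, whose levels did not separate by hemin. The order was that of SOD3, and the step from mock DMSO to hemin nilotinib was its only neighbouring pair past the test.

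GPX4 (ENSG00000167468, chromosome 19 from 1103926 to 1106791), the selenium enzyme that reduces lipid peroxides in membranes, ranged from 189 to 215 CPM in mock DMSO, 192 to 216 CPM in mock nilotinib, 173 to 290.1 CPM in hemin DMSO and 161 to 179.5 CPM in hemin nilotinib. The hemin DMSO range covered both mock groups, and no neighbours in its order of levels differed. GPX1 (chromosome 3 from 49357171 to 49358600) carries the name of the main cytosolic glutathione peroxidase. Its levels were 0.0540, 0.119 and 0.307 CPM in mock DMSO, 0.254, 0.0583 and 0.144 CPM in mock nilotinib, 0.521, 1.24 and 0.786 CPM in hemin DMSO, and 0.259, 0.137 and 0.0701 CPM in hemin nilotinib. The hemin DMSO libraries were above all others, at 17 to 39 counts, and 3 of the other libraries held 3 counts or fewer. The other 3 groups overlapped, with means of 0.152 to 0.160 CPM, and did not differ from each other.

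PRDX2 (ENSG00000167815, chromosome 19 from 12796820 to 12801859), a cytosolic peroxiredoxin abundant in red cells, had 153, 176 and 175 CPM in mock DMSO, 565, 554 and 523 CPM in mock nilotinib, 167, 247 and 172 CPM in hemin DMSO, and 790.5, 611 and 501 CPM in hemin nilotinib. As for SOD3 and CAT, the 6 nilotinib libraries were all higher than the 6 DMSO libraries. Within each of these sets the hemin and mock libraries overlapped, and hemin DMSO against mock nilotinib was the only neighbouring pair past the test.

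PRDX1 (ENSG00000117450, chromosome 1 from 45511036 to 45523047), also cytosolic, ran the other way. Its levels were 206, 237 and 254 CPM in mock DMSO, 126, 132 and 153 CPM in mock nilotinib, 874, 676 and 678 CPM in hemin DMSO, and 219.6, 265 and 259 CPM in hemin nilotinib. Mock nilotinib was lowest and hemin DMSO highest, without overlap with any other group, while mock DMSO and hemin nilotinib overlapped and did not differ. MMACHC on the other strand covers 24.9% of the exon bases of PRDX1. It held 4869 counts over the 12 libraries against 154212 for PRDX1, and whether strand was used in counting is not given in the sources used here.

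PRDX6 (ENSG00000117592, chromosome 1 from 173477266 to 173488807), a peroxiredoxin that uses glutathione, had 373, 426 and 423 CPM in mock DMSO, 352, 449 and 464 CPM in mock nilotinib, 589.7, 744 and 574 CPM in hemin DMSO, and 435, 481 and 422 CPM in hemin nilotinib. The hemin DMSO group alone stood clear of the rest, and in the order mock DMSO, mock nilotinib, hemin nilotinib, hemin DMSO the last pair alone differed. PRDX3 (ENSG00000165672, chromosome 10 from 119167703 to 119178833), the peroxiredoxin of mitochondria, ranged from 111 to 117 CPM in mock DMSO, 89.7 to 102 CPM in mock nilotinib, 106 to 154 CPM in hemin DMSO and 81.1 to 97.6 CPM in hemin nilotinib. Both nilotinib groups lay below both DMSO groups, and no neighbours in its order differed.

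**Figure D1:**
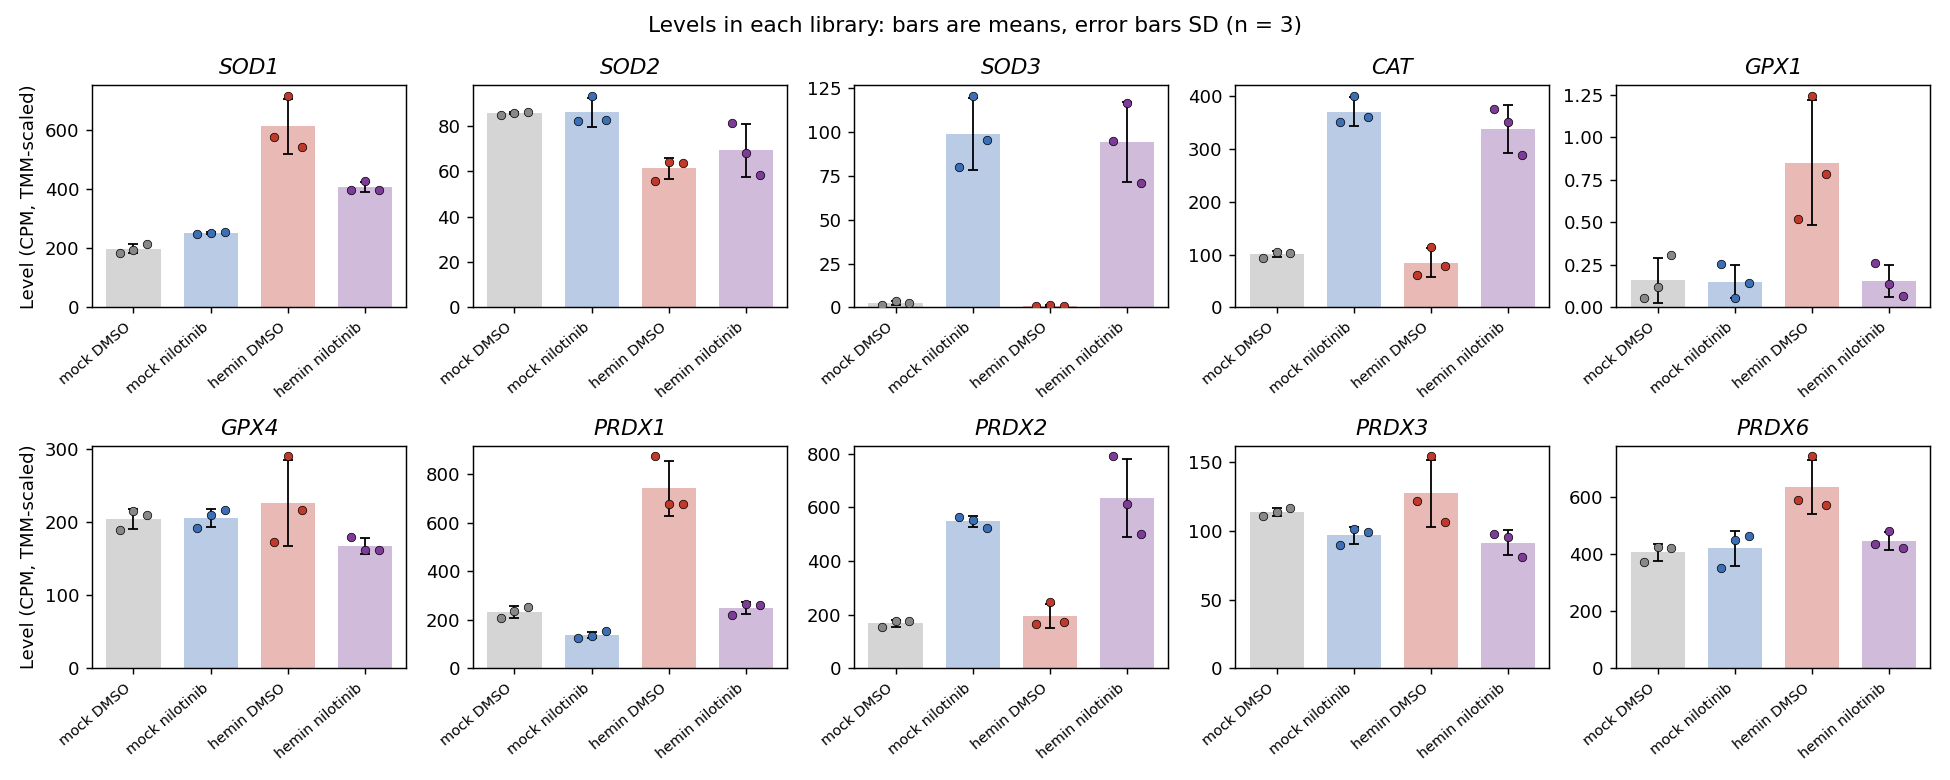
Level of each member (vertical axis, CPM from 0) by group (horizontal axis), with points for the 12 libraries, bars for group means and error bars for the SD (n = 3). SOD3 separates the nilotinib libraries (70.9 to 121 CPM) from the DMSO libraries (0.858 to 3.82 CPM), and PRDX1 is highest in hemin DMSO (676 to 874 CPM).

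Levels of different genes were compared per kilobase of annotated exon length. In mock DMSO, PRDX6 at 172 ± 12.6 and PRDX1 at 153 ± 16.2 CPM per kilobase were the highest of the 10 (SD, n = 3). With hemin alone PRDX1 led at 488 ± 75.0 CPM per kilobase, followed by SOD1 at 303 ± 45.5. PRDX2 led in both nilotinib groups, at 262 ± 10.5 CPM per kilobase in mock nilotinib and 303.0 ± 69.9 in hemin nilotinib. The highest level thus belonged to PRDX6 in mock DMSO, PRDX1 in hemin DMSO and PRDX2 with nilotinib.

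Summed over the 10 members, levels were 673 ± 50.2 CPM per kilobase in mock DMSO, 940 ± 47.2 in mock nilotinib, 1331 ± 127 in hemin DMSO and 1108 ± 90.6 in hemin nilotinib (SD, n = 3 each). GPX1 enters this sum at its low counts, with the same doubt about how its reads were counted. Peroxiredoxins took 65.2%, 59.4%, 66.8% and 61.4% of this sum in the same order of groups. Superoxide dismutases took 15.6%, 18.8%, 23.0% and 22.6%, of which SOD3 made up 4.92% of the sum in mock nilotinib and 3.97% in hemin nilotinib. Catalase took 4.18% in mock DMSO and 1.76% in hemin DMSO, against 11.0% in mock nilotinib and 8.46% in hemin nilotinib. The ratio of PRDX1 to PRDX2 per kilobase was 1.85 to 2.001 in mock DMSO, 0.306 to 0.403 in mock nilotinib, 3.76 to 7.21 in hemin DMSO and 0.382 to 0.712 in hemin nilotinib. PRDX1 exceeded PRDX2 in every DMSO library and was below it in every nilotinib library. SOD1 exceeded SOD3 on this scale in all 12 libraries, by 564-fold to 708-fold in hemin DMSO and by 2.20-fold to 3.26-fold in mock nilotinib.

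**Figure D2:**
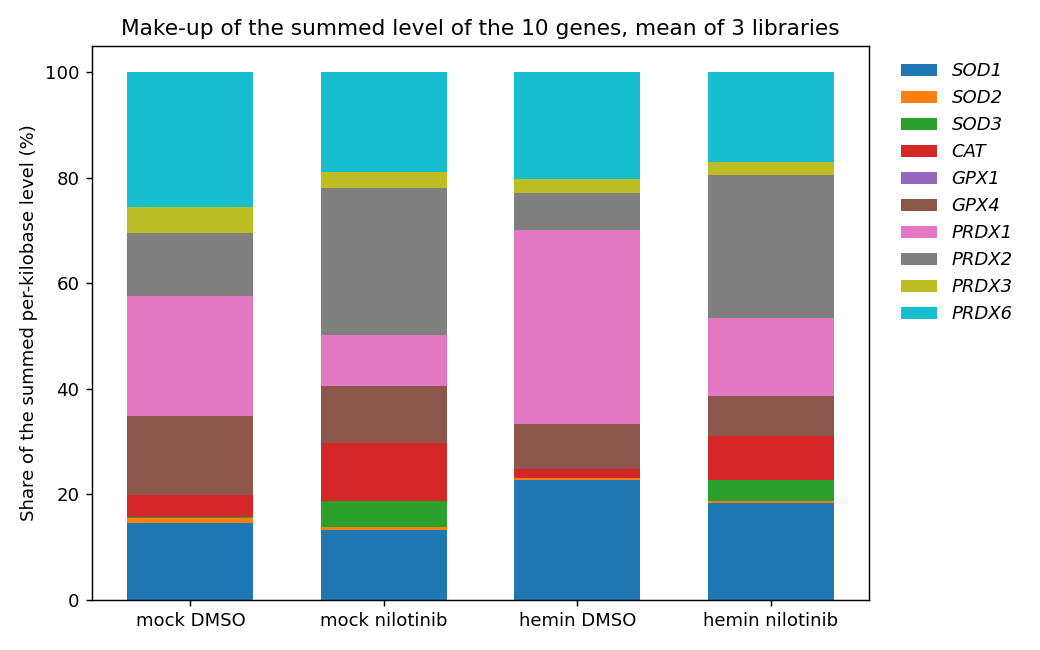
Share of each member in the summed level per kilobase of the 10 members (vertical axis, percent), as stacked bars for the 4 groups, each the mean of 3 libraries. PRDX1 fills 36.9% of the hemin DMSO bar and 9.59% of the mock nilotinib bar, while PRDX2 fills 6.98% and 27.9%.

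The first comparison asked what nilotinib did without hemin. SOD3 rose most, with a 36.5-fold higher mean level in mock nilotinib than mock DMSO cells. CAT rose 3.67-fold, PRDX2 3.26-fold and SOD1 1.27-fold, whereas PRDX1 fell to 0.590 of its mock DMSO level. The other 5 members did not pass the test, with log2 fold changes from -0.23 (PRDX3, which passed in the 6 libraries alone) to 0.05 (PRDX6). SOD3 changed by 5.20 on the log2 scale (SE 0.29, adjusted p = 1.76e-09, by edgeR's quasi-likelihood fit, p adjusted by Benjamini and Hochberg), the 66th largest rise of 20821 genes. Those of CAT, PRDX2 and SOD1 were 1.87 (SE 0.19), 1.70 (SE 0.18) and 0.34 (SE 0.13), with adjusted p of 7.91e-07, 1.50e-06 and 0.0453 in the same edgeR test. PRDX1 had -0.76 (SE 0.15, adjusted p = 0.000556 in edgeR's test), lower in 3 of 3 libraries. In all, 5 of the 10 members tested passed, 4 higher and 1 lower, beside 42.5% of all genes (20.7% higher, 21.8% lower), a share close to that background. Their median log2 fold change was 0.031, beside 0.0039 over all genes, and the median size was 0.29 beside 0.57. The SOD1 call was lost when any 1 of the 6 libraries was left out (log2 fold change 0.25 to 0.38), with all genes of at least 1 count (0.31, adjusted p = 0.156) and on log2(FPKM + 0.1) (0.35, adjusted p = 0.0540).

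The same question was then asked in hemin-treated cells. SOD3 was 90.8-fold higher in hemin nilotinib than in hemin DMSO, CAT 3.99-fold and PRDX2 3.25-fold. PRDX1 fell to 0.334 of its hemin DMSO level, SOD1 to 0.666, PRDX6 to 0.701, PRDX3 to 0.717 and GPX4 to 0.739. SOD2 did not pass the test, at 0.18 (SE 0.13, adjusted p = 0.246 in edgeR's test), though it did without composition factors (0.35). On the log2 scale SOD3 had 6.50 (SE 0.32, adjusted p = 1.95e-10), CAT 1.996 (SE 0.19, adjusted p = 1.77e-07) and PRDX2 1.70 (SE 0.18, adjusted p = 6.57e-07), all in edgeR's test. On the falling side PRDX1 had -1.58 (SE 0.15, adjusted p = 1.75e-07 in edgeR's test) and SOD1 -0.59 (SE 0.13, adjusted p = 0.00101). PRDX6, PRDX3 and GPX4 followed at -0.51 (SE 0.15), -0.48 (SE 0.14) and -0.44 (SE 0.16). In all 9 of 10 passed, 3 higher and 6 lower, beside 64.2% of all genes (32.4% higher, 31.8% lower). This count includes GPX1, at -2.46 (SE 0.64), whose inclusion rested on hemin DMSO and so favoured a difference here. The share above the background was not tested. The members' median was -0.46, beside 0.022 over all genes. GPX4 overlapped between the groups, and its call was lost without hemin DMSO replicate 2 (-0.22), hemin nilotinib replicate 2 (-0.41) or hemin nilotinib replicate 3 (-0.40), in the 6 libraries alone (-0.41) and without composition factors (-0.25). On log2(FPKM + 1) the change of GPX1 was -0.52. Without composition factors PRDX3 and PRDX6 were at -0.29 and -0.33, and both passed.

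These nilotinib comparisons share no library, so their difference, the interaction of nilotinib and hemin, was tested directly. SOD3 had the more positive response to nilotinib with hemin, and SOD1 and PRDX1 the more negative one. If the mock cells were collected at 0 h of hemin, hemin and a longer time since nilotinib cannot be told apart in this difference. For SOD1 the direction itself turned, from a rise without hemin to a fall with it. SOD3 had means of 98.85 CPM in mock nilotinib and 94.33 CPM in hemin nilotinib. Its DMSO means were 2.71 CPM without and 1.04 CPM with hemin, so its larger fold under hemin starts from a lower level. The interaction term was 1.30 for SOD3 (SE 0.39, adjusted p = 0.0203), -0.93 for SOD1 (SE 0.19, adjusted p = 0.00166) and -0.82 for PRDX1 (SE 0.21, adjusted p = 0.00731), in edgeR's test on the log2 scale. CAT and PRDX2, at 0.12 (SE 0.26) and -0.01 (SE 0.25), and the other 5 members did not pass, though GPX1 did on either FPKM scale and without mock DMSO replicate 3 or hemin nilotinib replicate 1, and GPX4 without hemin DMSO replicate 1 (-0.62). The 3 members that passed, 1 higher and 2 lower, stand beside 30.1% of all genes (17.1% higher, 13.0% lower), a share close to that background. The median over the members was -0.35, beside 0.063. PRDX6 missed the threshold at -0.56 (SE 0.21, adjusted p = 0.0515) and passed it with the replicate number as a block (adjusted p = 0.0311), with DESeq2 (0.0202) and in 3 other settings, and without mock nilotinib replicate 1 (-0.66), hemin DMSO replicate 1 (-0.62) or hemin DMSO replicate 3 (-0.65). The SOD3 term was not past it on log2(FPKM + 1) (0.48) or log2(FPKM + 0.1) (1.04), nor without 1 of mock DMSO replicate 2, hemin DMSO replicate 1 and hemin DMSO replicate 3 (adjusted p 0.0623, 0.0573 and 0.0535).

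Hemin without nilotinib is the comparison of hemin DMSO with mock DMSO. PRDX1 and SOD1 rose most among the well-counted members, 3.20-fold and 3.08-fold, and PRDX6 rose 1.56-fold. SOD3 fell to 0.383 and SOD2 to 0.715 of the mock DMSO level. CAT, GPX4, PRDX2 and PRDX3 did not pass the test, at log2 fold changes of -0.25, 0.15, 0.22 and 0.16. PRDX1 had 1.68 (SE 0.15, adjusted p = 2.33e-07) and SOD1 1.62 (SE 0.13, adjusted p = 1.09e-07) in edgeR's test. PRDX6 had 0.64 (SE 0.15, adjusted p = 0.00167), SOD2 -0.48 (SE 0.13, adjusted p = 0.00530) and SOD3 -1.37 (SE 0.31, adjusted p = 0.00160) in the same edgeR test. With GPX1 (2.38, SE 0.61), whose inclusion favoured a difference, 6 of 10 passed, 4 higher and 2 lower, beside 53.6% of all genes (25.7% higher, 27.8% lower). The share is near that background, and the median was 0.19 beside -0.047. On log2(FPKM + 1) the changes of SOD3 and GPX1 were -0.57 and 0.52. Over the alternatives other than leaving out 1 library, PRDX6 ranged from 0.40 to 0.76 and SOD2 from -0.73 to -0.36, and both passed in each. CAT passed without hemin DMSO replicate 2, at -0.53, and without composition factors, at -0.50, but was at -0.06 without hemin DMSO replicate 1.

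With nilotinib present, 1208 genes passed the test for hemin, against 11156 without it. PRDX1 was 1.81-fold and SOD1 1.62-fold higher in hemin nilotinib than in mock nilotinib, and the other 8 members did not pass, with log2 fold changes from -0.31 (SOD2) to 0.21 (PRDX2, at 0.02 without hemin nilotinib replicate 1). On the log2 scale PRDX1 had 0.85 (SE 0.15, adjusted p = 0.00465) and SOD1 0.69 (SE 0.13, adjusted p = 0.00792) in edgeR's test. These are 2 of 10 members, both higher, beside 5.80% of all genes (3.52% higher, 2.28% lower), so the share above the background rests on 2 genes. The medians were -0.047 and 0.026. The SOD1 call was lost without mock nilotinib replicate 2 or replicate 3 (0.68 each) or hemin nilotinib replicate 2 (0.63). Without hemin nilotinib replicate 1, the library near mock nilotinib, SOD2 also passed at -0.45, 3 members passed, and 2793 rather than 1208 of all genes passed. Leaving out mock nilotinib replicate 2, mock nilotinib replicate 3 or hemin nilotinib replicate 2 gave 213, 234 and 286 genes.

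**Figure D3:**
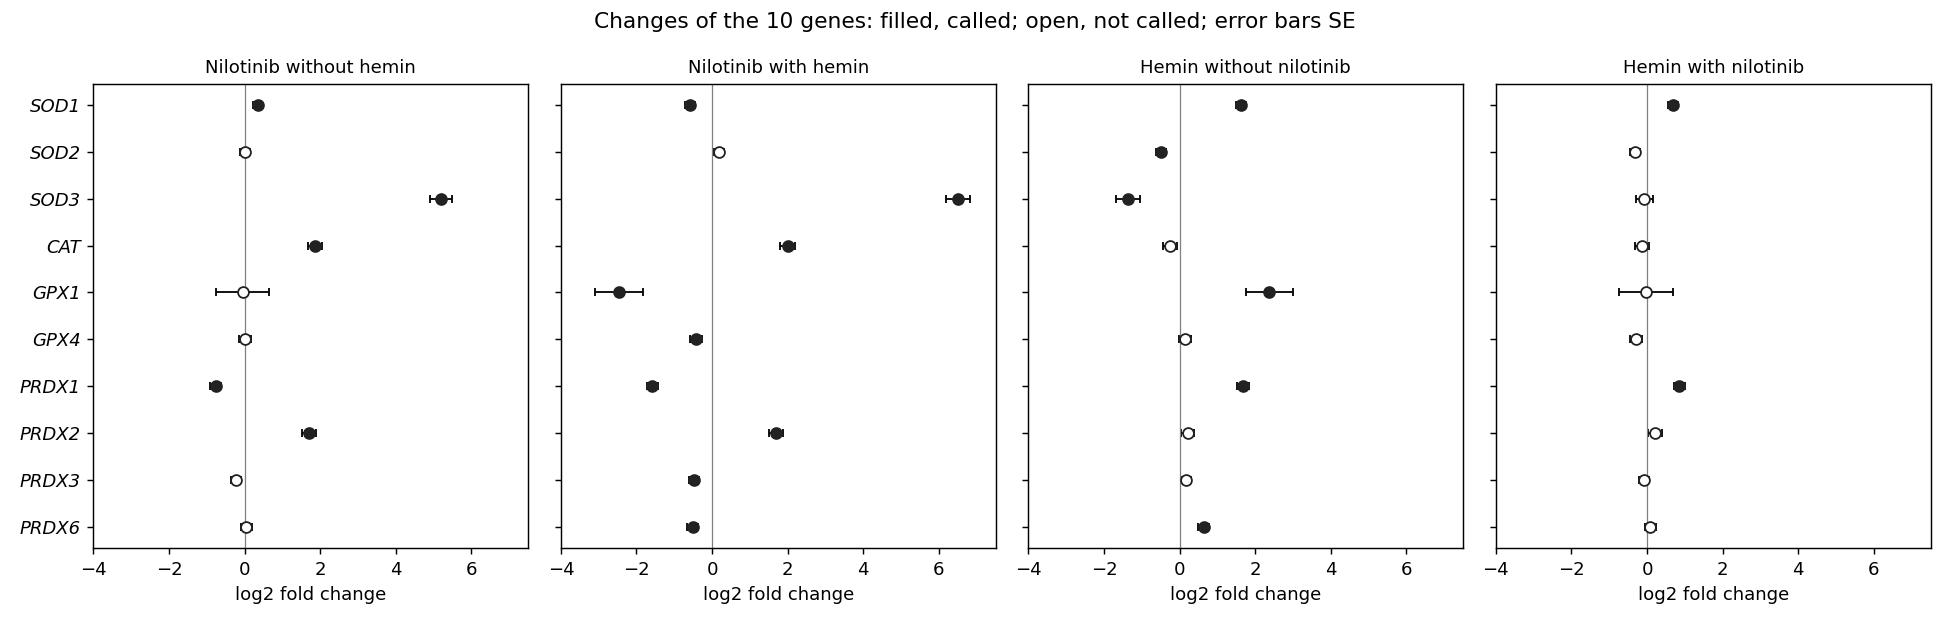
Log2 fold change of each member (horizontal axis) with bars of 1 SE, in panels by comparison, where filled points passed an adjusted p of 0.05 in edgeR's test. SOD3 lies at 5.20 and 6.50 in the nilotinib panels, and in the panel of hemin with nilotinib only PRDX1 (0.85) and SOD1 (0.69) are filled.

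Nilotinib alone was next set against hemin alone. Mock nilotinib was higher than hemin DMSO in SOD3 (95.2-fold), CAT (4.37-fold), PRDX2 (2.80-fold) and SOD2 (1.40-fold). It was lower in PRDX1 (0.185 of hemin DMSO), SOD1 (0.411), PRDX6 (0.663) and PRDX3 (0.759), and in GPX1. The log2 fold change of SOD3 was 6.57 (SE 0.32) and that of PRDX1 -2.44 (SE 0.15, adjusted p = 1.59e-09 in edgeR's test). In all 9 of 10 passed, 4 higher and 5 lower, beside 65.8% of all genes (32.5% higher, 33.4% lower), with medians of -0.27 and -0.015. The inclusion of GPX1 again favoured a difference. GPX4 did not pass, at -0.14 (SE 0.16). PRDX6, at -0.59, ranged from -0.63 to -0.38 over the alternatives other than leaving out 1 library, and passed in each. PRDX3, at -0.40 (SE 0.14), lost its call without mock nilotinib replicate 1 (-0.33), mock nilotinib replicate 3 (-0.39) or hemin DMSO replicate 2 (-0.23), without composition factors (-0.18) and with all genes of at least 1 count (-0.35).

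Against untreated cells, those given both agents were higher in SOD3 (34.8-fold), PRDX2 (3.77-fold), CAT (3.35-fold) and SOD1 (2.05-fold). PRDX1, which fell with nilotinib alone and rose with hemin alone, was at 0.09 (SE 0.15, adjusted p = 0.629 in edgeR's test) and overlapped. The log2 fold changes of the 4 were 5.13 (SE 0.29), 1.92 (SE 0.18), 1.74 (SE 0.19) and 1.04 (SE 0.13). These 4 of 10, all higher, stand beside 46.6% of all genes (24.2% higher, 22.4% lower), with medians of 0.11 and 0.063. Without composition factors 7 members passed, SOD2 (-0.37), GPX4 (-0.35) and PRDX3 (-0.38) being added, and GPX4 (-0.30) and PRDX3 (-0.33) passed in the 6 libraries alone. Without hemin nilotinib replicate 1, 6 members passed, SOD2 (-0.44) and PRDX3 (-0.37) being added. All comparisons reuse the same 4 groups, so those that share a group are not independent of each other.

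Members were also set beside all well-counted genes over the 12 libraries by Pearson r of log2 levels, a description that follows the 4 groups. Among 12495 genes with a mean of at least 100 counts, those most like SOD3 were ALAS2 (r = 0.996), the first enzyme of heme synthesis in erythroid cells, COL18A1, CA1, a carbonic anhydrase of red cells, FN3K and C17orf99 (r = 0.994 for the fifth, n = 12). Most like CAT were SMIM1 (r = 0.995), which carries the Vel blood group, UROD, an enzyme of heme synthesis, HBQ1, FBXO7 and TPGS2 (r = 0.991 for the fifth, n = 12). PRDX2 was most like IQGAP2 (r = 0.986), the α-globin gene HBA1, TSC22D1, SELENBP1 and the embryonic globin gene HBZ (r = 0.982 for the fifth, n = 12). HBA1 shares 78.5% of its 150-base words with other transcripts, chiefly HBA2, and HBZ shares 34.3% of its words with other genes. The genes nearest to PRDX1 were YWHAG (r = 0.992), TTC1, MLLT11, MORF4L2 and FAF2 (r = 0.987 for the fifth, n = 12). SOD1 was most like PSMB1 (r = 0.980), a proteasome subunit, TUBB2A, CLTC, ERP44 and ACOT13 (r = 0.974 for the fifth, n = 12), and 41.4% of the words of TUBB2A are shared. For GPX1, at its low counts, the nearest were ATG16L1 (r = 0.937), RPS26, RIC8B, C19orf53 and MARK2 (r = 0.928 for the fifth, n = 12).

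Other genes of the same chemistry were read as 8 lists. The background of their counts is the share of all genes that rose and fell: 20.7% and 21.8% with nilotinib without hemin, 32.4% and 31.8% with nilotinib under hemin, 25.7% and 27.8% with hemin alone, and 3.52% and 2.28% with hemin in the presence of nilotinib. With few genes in each list, no difference from these shares was tested. Of 8 further glutathione peroxidases and peroxiredoxins, 5 were tested. With nilotinib without hemin PRDX5 rose and GPX3, GPX8 and PRDX4 fell, and under hemin PRDX5 rose and GPX5, GPX8 and PRDX4 fell, the PRDX4 call being lost in 5 alternatives. With hemin alone 2 fell, of which 1 (GPX3) passed in every alternative. With hemin in the presence of nilotinib 0 of the 5 passed in edgeR's test, 0 at an unadjusted p under 0.05 and 0 with DESeq2. Their median log2 fold change was -1.60 with nilotinib without hemin and -0.60 with hemin. PRDX5, a peroxiredoxin of mitochondria and peroxisomes, had 170 ± 9.25 CPM in mock DMSO and 371 ± 17.4 CPM in mock nilotinib, a log2 fold change of 1.13 (SE 0.16). GPX3, the secreted glutathione peroxidase, had 2.77 ± 0.645 CPM in mock DMSO and 0.592 ± 0.214 CPM in hemin DMSO (-2.20, SE 0.35). GPX8 of the endoplasmic reticulum went from 3.45 ± 0.349 CPM in mock DMSO to 0.0292 ± 0.0505 CPM in mock nilotinib, and GPX5 went from 0.542 ± 0.105 CPM in hemin DMSO to 0.0261 ± 0.0276 CPM in hemin nilotinib (SD, n = 3 each). Both had libraries at 0 counts. GPX5 passed the filter only through hemin DMSO, so its difference from that group was built in. GPX8 passed it in the 6 DMSO libraries alone, so its inclusion rests on the groups above those given nilotinib.

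The thioredoxin system, 7 genes of thioredoxins, their reductases and proteins that act on thioredoxin or peroxiredoxins, had 4 rises with hemin alone (median 1.43, beside -0.047 over all genes) and 3 with hemin added to nilotinib, of which 2 passed in every alternative. With nilotinib 2 rose and 1 fell without hemin, and 2 rose and 2 fell with hemin. TXNRD1, thioredoxin reductase, had a log2 fold change of 3.24 with hemin alone (SE 0.24), from 203 ± 4.88 to 1923 ± 300 CPM (SD, n = 3 each). It fell by 1.83 on the log2 scale with nilotinib under hemin. TXN, thioredoxin itself, had 1.43 with hemin alone and -0.96 with nilotinib under hemin. SRXN1, which restores overoxidised peroxiredoxins, had 2.07 with hemin alone, and 84.2% of its words are shared with an overlapping gene. TXNIP, which binds thioredoxin, rose with nilotinib, by 5.37 without hemin (SE 0.50) and 3.07 with it (SE 0.45).

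Of the 8 genes of glutathione supply, 6 rose with hemin alone (median 1.65), 5 of them in every alternative, and 3 rose with hemin in the presence of nilotinib, 1 of them (GSR) in every alternative. With nilotinib under hemin 6 fell and 1 rose (median -0.79). GCLM, 1 of the 6, lost its call in 8 alternatives, among them leaving out hemin nilotinib replicate 1, upper-quartile factors and no composition factors, and the other 5 kept theirs. With nilotinib without hemin 3 fell, 1 of them in every alternative, and 2 rose. GCLM, a subunit of the enzyme that starts glutathione synthesis, had 2.37 with hemin alone (SE 0.30), SLC7A11, the cystine importer, 2.36 (SE 0.41), GSR, glutathione reductase, 2.13 (SE 0.23), and SLC3A2, the partner chain of SLC7A11, 1.91 (SE 0.23). Their levels spread widely in hemin nilotinib, where SLC7A11 stood at 302 ± 196 CPM and GCLM at 424 ± 216 CPM (SD, n = 3). Among 6 genes of NADPH supply, 2 rose and 1 fell with hemin alone, and 1 rose and 3 fell with nilotinib in either setting. Without hemin the third fall was that of ME1, a call lost in 11 alternatives. With hemin added to nilotinib 2 rose, and each call was lost in at least 1 alternative. ME1, the cytosolic malic enzyme, had 20.6 ± 1.61 CPM in mock DMSO, 275 ± 45.1 CPM in hemin DMSO but only 34.1 ± 10.6 CPM in hemin nilotinib (SD, n = 3 each), with log2 fold changes of 3.74 for hemin alone and -3.01 for nilotinib under hemin. IDH1 had -2.33 and -1.82 with nilotinib without and with hemin, PGD -0.70 and -0.88, and NNT, the mitochondrial transhydrogenase, 0.83 and 1.28.

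Copper is the metal of SOD1 and SOD3. Of 6 genes of copper supply, 4 rose and 2 fell with hemin alone, but 1 rose and 2 fell without composition factors, so which direction had more genes depended on scaling. With nilotinib 3 rose and 1 fell without hemin, 2 of these 4 calls holding in every alternative, and 2 rose and 2 fell under hemin. With hemin in the presence of nilotinib 0 of the 6 passed in edgeR's test, 0 at an unadjusted p under 0.05 and 0 with DESeq2. CCS, the chaperone that loads SOD1, had 1.13 (SE 0.19) and 1.68 (SE 0.20) with nilotinib without and with hemin. ATP7B, a copper exporter, had 0.83 and 2.42 with nilotinib and -1.63 with hemin alone. SLC31A1, the copper importer, ran the other way at -1.30 with nilotinib under hemin and 0.94 with hemin alone. SLC31A2 held 5 to 16 counts, shares 52.9% of its words with FKBP15, and had 1.34 with hemin alone. It passed the filter only through hemin DMSO, so that this difference was built in, and its call was lost in 6 alternatives. Selenium enters GPX1 and GPX4 through 7 listed genes of selenoprotein synthesis. With nilotinib SEPSECS rose and SEPHS2 and LRP8 fell whether or not hemin was present, the call of LRP8 under hemin being lost in 5 alternatives. Among the 7, 1 fell with hemin alone, and 2 rose with hemin in the presence of nilotinib. SEPSECS had 0.93 and 1.42 with nilotinib, SEPHS2 -0.83 and -0.65, LRP8, a receptor for selenoprotein P, -1.99 without hemin, and SECISBP2 0.42 with hemin in the presence of nilotinib. The SECISBP2 call was lost in 11 alternatives (0.33 to 0.45 over all), among them leaving out any 1 of the mock nilotinib libraries, hemin nilotinib replicate 2 or hemin nilotinib replicate 3.

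Of 12 genes of oxidases that form superoxide or peroxide, 8 were tested. With nilotinib without hemin 3 rose and 1 fell, a share of 50.0% close to the 42.5% of all genes, and 2 of the 4 calls held in every alternative. Under hemin 3 rose and 4 fell (87.5%, beside 64.2%), and 6 of the 7 calls held. With hemin alone 2 rose. The filter let 1 of the 8 past only through hemin DMSO, so its differences from that group, counted here, were built in. With hemin in the presence of nilotinib 0 of the 8 passed in edgeR's test, 1 at an unadjusted p under 0.05 and 1 with DESeq2. NOX5, a calcium-regulated oxidase, had 0.703 ± 0.243 CPM in mock DMSO and 14.0 ± 1.71 CPM in mock nilotinib (SD, n = 3 each), with log2 fold changes of 4.33 (SE 0.27) without and 4.05 (SE 0.28) with hemin. DUOX1 had 1.30 and 1.67. NCF4, a subunit of the phagocyte oxidase, stayed under 1 CPM on average in every group and had -1.99 with nilotinib under hemin. Among 7 regulators, 3 rose and 2 fell with nilotinib without hemin and, with other genes among them, 3 rose and 2 fell under hemin. With hemin alone 3 rose and 3 fell, and with hemin in the presence of nilotinib MAFG rose, a call lost in 8 alternatives. BACH1, a heme-binding repressor of antioxidant genes, had 0.70 (SE 0.16) and 1.46 (SE 0.16) with nilotinib without and with hemin. MAFG, its partner on DNA, had 1.44 with hemin alone (SE 0.22). FOXO3 had 1.34 and 0.74 with nilotinib, and FOXO1 -1.22 with nilotinib under hemin, 0.74 without hemin (a call lost in 5 alternatives) and 2.08 with hemin alone. On log2(FPKM + 1) the added 1 shrinks the change of genes of low level, to 0.995 and 0.847 for NOX5 and to 0.78 for FOXO1 with hemin alone.

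**Figure D4:**
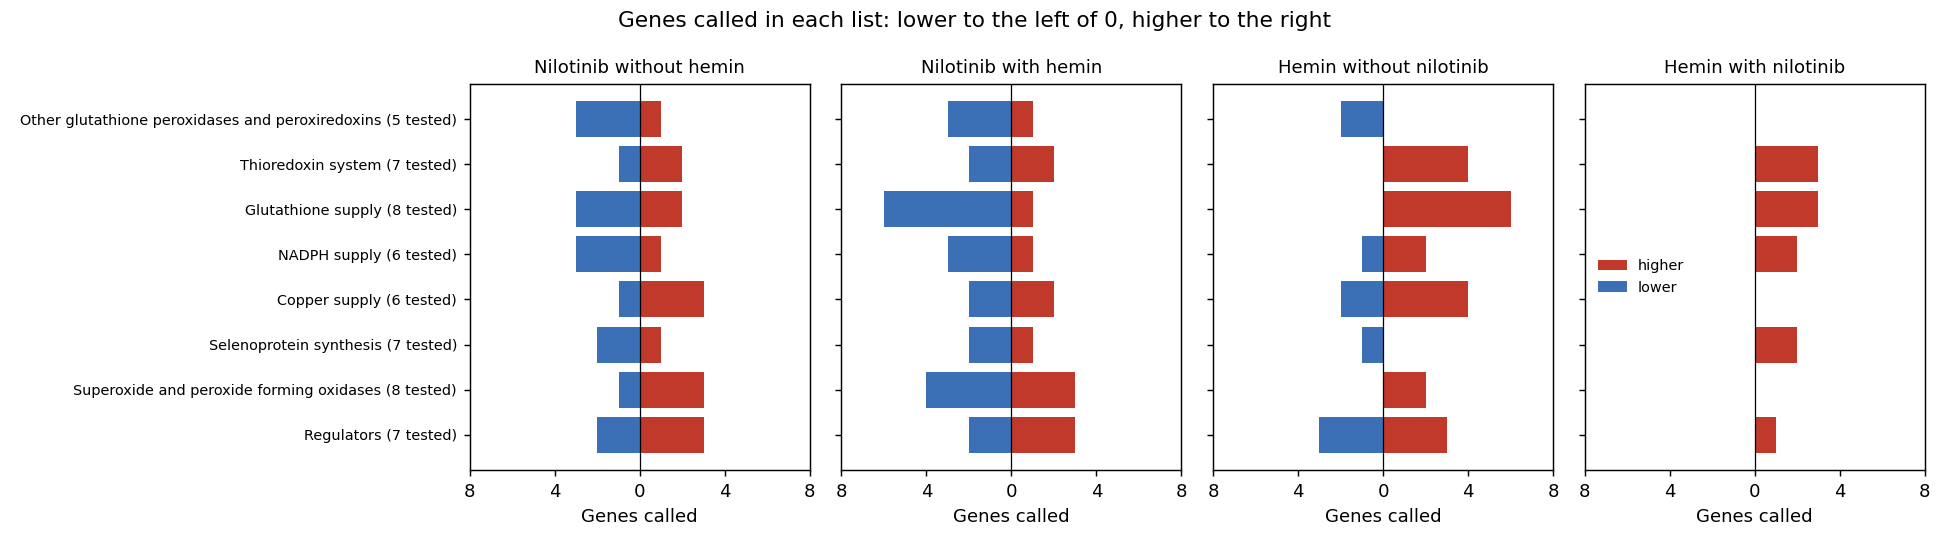
Number of genes of each of 8 lists (rows of bars) that passed an adjusted p of 0.05 in edgeR's test, higher to the right of 0 and lower to the left, in panels by comparison. Glutathione supply has 6 higher with hemin alone and 6 lower with nilotinib under hemin, 5 of each in every alternative.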

How the data were processed

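The input was the table of raw counts per gene, without normalization, that the authors deposited for 12 RNA-seq libraries of K562. FPKM deposited beside it proved to be counts per kilobase over median-of-ratios size factors, and served only in 2 alternatives. A table of mean FPKM by group was left unused. The submitters name GRCh38.p12, DESeq2 and DESeq without versions, and the aligner and counting program are not given in the sources used here.

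Tests used edgeR 4.0.16 under R 4.3.3. Low counts were removed with filterByExpr (minimum count 10, total 15), which left 20821 genes. TMM factors scaled the libraries, and the quasi-likelihood model had a mean for each of the 4 groups. Tests were two-sided, with Benjamini-Hochberg adjustment over the 20821 genes and a threshold of 0.05. The comparisons were nilotinib without and with hemin, their difference, hemin without and with nilotinib, nilotinib alone against hemin alone, and both agents against neither. SE is the log2 fold change over the root of the F statistic. A gene at 3 counts or fewer in every library of a group was given no fold against it.

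Each alternative changed 1 step and what follows from it: DESeq2 and limma-trend on FPKM change test and scaling together, and fits on fewer libraries also change which genes pass the filter. The tool was DESeq2 1.42.0, or limma-trend (limma 3.58.1) on log2(FPKM + 1) or log2(FPKM + 0.1). Scaling used RLE factors, upper-quartile factors or none. The filter became at least 1 count in all, or at least 10 counts in every library. Fits were also made on the 6 libraries compared, with a block for replicate number, and with each library omitted in turn. Replicate numbers are those in the labels. For each pair of groups, the deviations of libraries with the same number from their group means were correlated. All 3 values passed 0.1 for mock nilotinib with hemin nilotinib alone (0.263, 0.199 and 0.254). The main tests paired no groups, and the block for replicate number was fitted over all 12 libraries.

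The members and lists were chosen with earlier results of these data known. Named genes are the members, the 4 genes of each list with the largest absolute log2 fold change among those that passed in the 4 comparisons of nilotinib and of hemin, the 5 genes most correlated over the 12 libraries (log2 CPM, prior count 2) with each member that passed at an absolute log2 fold change of at least 1, and HMOX1, DUSP6, CISH and ACTB. Some genes that these rules select, and marker sums that need them, are not reported here. Overlaps and shared 150-base words came from GENCODE 29. The procedures were tested on simulated data. Python 3.11.15 with pandas 2.3.3, numpy 2.4.6 and matplotlib 3.10.9 made the tables and drew the figures.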

Additional observations from a re-analysis of the deposited data

Results flagged for a closer look

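For 3 members the response to nilotinib differed between cells with and without hemin by the test of that difference itself, edgeR's quasi-likelihood test of the interaction with Benjamini-Hochberg adjustment over 20821 genes. For SOD1 the difference was -0.93 on the log2 scale, for PRDX1 it was -0.82 and for SOD3 it was 1.30. SOD1 rose with nilotinib without hemin, a call lost when any 1 of the 6 libraries was left out, and fell with it. PRDX1 fell in both settings and more with hemin. SOD3 rose in both settings, by the larger fold with hemin, from a lower DMSO mean (1.04 CPM with and 2.71 CPM without hemin). Its nilotinib means were 94.33 CPM with and 98.85 CPM without hemin. The SOD3 difference did not pass on either FPKM scale (0.48 and 1.04) or without any 1 of 3 libraries. Of all genes tested, 30.1% passed the same test. If the mock cells were collected at 0 h of hemin, hemin and a longer time since nilotinib cannot be told apart in these differences.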

How the results depend on the processing

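Of the 70 log2 fold changes of single members, 38 passed the test. All 38 kept their sign in every alternative run for them, and 33 passed in every alternative that gave a value; the other 5 (SOD1 with nilotinib without hemin and with hemin in the presence of nilotinib, GPX4 with nilotinib under hemin, the SOD3 interaction, PRDX3 for nilotinib alone against hemin alone) are given beside their results. GPX1 has no value with at least 10 counts in every library, nor in the 6 libraries alone where hemin DMSO is not among them, and the interaction has none in 6 libraries alone. GPX1 held 2 to 39 counts, and whether this comes from its expression or from how reads were counted was not tested. The cause of the moves below was not tested, except where a filter or the number of libraries sets how many genes are tested.

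Among all genes, 1208 passed for hemin with nilotinib, against 1974 with DESeq2, 1987 with all genes of at least 1 count, 741 on log2(FPKM + 1), 694 on log2(FPKM + 0.1), 183 in the 6 libraries alone, and 213 to 2793 leaving out 1 library. Members that passed there were 2, or 1 to 3 leaving out 1 library, and for both agents against neither 4 became 7 without composition factors and 4 to 6 leaving out 1 library. Members past the interaction test were 3, and 2 to 4 leaving out 1 library.

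Values near 0 that missed the threshold changed sign. With upper-quartile factors these were GPX1 with nilotinib without hemin (0.07) and for both against neither (0.03), and the CAT interaction (-0.0039). Without composition factors they were SOD2 (-0.02) and GPX4 (-0.02) with nilotinib without hemin, GPX4 (-0.10), PRDX2 (-0.03) and PRDX3 (-0.09) with hemin without nilotinib, GPX4 for nilotinib alone against hemin alone (0.08) and the PRDX2 interaction (0.20). With all genes of at least 1 count they were SOD2 (-0.02) and GPX4 (-0.02) with nilotinib without hemin and the PRDX2 interaction (0.06). On FPKM they were GPX1 with hemin in the presence of nilotinib (0.0025 adding 1, 0.02 adding 0.1) and for both against neither (0.01 adding 0.1).

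Leaving out 1 library gave these ranges. With nilotinib without hemin they were -0.65 to 0.84 for GPX1, -0.09 to 0.06 for GPX4, -0.09 to 0.04 for SOD2 and -0.06 to 0.16 for PRDX6. With hemin without nilotinib they were -0.07 to 0.32 for GPX4, -0.53 to -0.06 for CAT, 0.02 to 0.33 for PRDX2 and 0.01 to 0.29 for PRDX3. With hemin in the presence of nilotinib they were -0.59 to 0.57 for GPX1, 0.02 to 0.35 for PRDX2, -0.04 to 0.13 for PRDX6, -0.22 to -0.04 for CAT, -0.14 to -0.01 for PRDX3 and -0.27 to 0.09 for SOD3. With nilotinib under hemin they were 0.06 to 0.30 for SOD2, -0.60 to -0.22 for GPX4 and -0.60 to -0.32 for PRDX3. For the interaction they were 0.05 to 0.33 for SOD2, -0.62 to -0.24 for GPX4, -0.38 to -0.09 for PRDX3, -0.08 to 0.40 for CAT and -0.18 to 0.19 for PRDX2, for nilotinib alone against hemin alone -0.30 to 0.09 for GPX4 and -0.52 to -0.23 for PRDX3, and for both against neither -0.65 to 0.82 for GPX1, 0.02 to 0.16 for PRDX6 and -0.03 to 0.17 for PRDX1.

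With a block for replicate number, 1587 of all genes passed for hemin with nilotinib, against 1208 in the main test, which did not use the numbers. In this comparison all 3 same-number correlations passed 0.1. The same number of members (2) passed there with the block. The PRDX6 interaction passed (adjusted p = 0.0311 in edgeR's test) and the PRDX2 interaction was 0.0014. Between the other groups the correlations of deviations of same-numbered libraries ran from -0.0796 to 0.235. For mock DMSO with mock nilotinib, mock DMSO with hemin DMSO, and mock nilotinib with hemin DMSO they were 0.0793 to 0.117. In these 3 pairs of groups every library of the first group correlated best with the library of its own number in the second. Whether replicate numbers pair libraries across these groups was not tested.

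Scaling moved the median of all genes. Without composition factors it was -0.286 rather than -0.047 for hemin without nilotinib, 0.272 rather than 0.063 for the interaction, 0.199 rather than 0.022 for nilotinib with hemin and 0.198 rather than -0.015 for nilotinib alone against hemin alone, and with upper-quartile factors it was 0.113 rather than 0.004 for nilotinib without hemin, 0.171 rather than 0.063 for both against neither, 0.073 for hemin without nilotinib and -0.057 for the interaction. The percent higher among genes that passed went from 48.0% to 33.9% for hemin without nilotinib without composition factors, from 56.7% to 73.3% for the interaction without composition factors, 46.3% with upper-quartile factors and 46.4% on log2(FPKM + 1), and from 60.7% to 49.2% without composition factors and 48.6% on log2(FPKM + 1) for hemin with nilotinib.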
